A study of Mus musculus with 8 samples.

Results

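The genes described here are 40 genes of the integrated stress response and the unfolded protein response, taken by symbol from a table of 35275 genes measured in whole mouse kidney. All 40 were in the table, each in 1 row. They fall into 14 targets of the transcription factor ATF4, 8 sensors, switches and feedback genes, 14 chaperones and folding factors of the endoplasmic reticulum (ER), and 4 genes of ER degradation. The kidneys came from 4 KO mice (Ctrp1-/-, homozygous for a deletion in exon 4 of C1qtnf1, which encodes the circulating protein CTRP1) and 4 WT littermates (Ctrp1+/+). All 8 were male, were 40 weeks old and had eaten a high-fat diet, with 60% of its calories from fat, since the age of 6 weeks. The targeted ES cells were of the 129S5/Sv strain and the line was backcrossed over 6 generations to C57BL/6J, so 129S5/Sv DNA may remain around the target. The deletion was carried in the germline and not limited to the kidney. RNA of the whole left kidney was selected by its poly-A tail and sequenced. In such bulk samples, fewer cells of a type and less RNA per cell cannot be told apart.

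Cells under strain slow their protein synthesis through kinases that phosphorylate eIF2alpha, among them PERK (gene Eif2ak3), which senses misfolded protein in the ER, and GCN2 (Eif2ak4), which senses a lack of amino acids. Translation of ATF4 then goes up, and ATF4 switches on genes of amino acid synthesis and transport, of redox balance and, under long stress, of cell death. The ER has further sensors in IRE1 (Ern1), which splices the Xbp1 transcript, and ATF6, which is cut to release a transcription factor, and these raise the chaperones and the degradation machinery of the ER. The proximal tubule, which makes up much of the kidney, synthesises serine and handles large loads of protein and amino acids.

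The median log2 fold change between KO and WT kidneys was 0.24 in the ATF4 targets, 0.09 in the ER chaperones, 0.06 in the ER degradation genes and -0.10 in the sensors and feedback genes. No member passed the test over all genes. Nupr1 had the clearest separation, with a mean of 5.87 ± 1.44 FPKM in KO and 2.74 ± 0.0765 FPKM in WT (SD, n = 4 each), 2.14 times the WT mean. Chac1 was at 1.5 ± 0.243 FPKM in KO and 0.748 ± 0.287 FPKM in WT. Hspa5, the gene of the main ER chaperone BiP, was at 206 ± 51.6 FPKM in KO and 186 ± 27.8 FPKM in WT. FPKM are reads scaled for gene length and library depth. Fold changes below are differences KO minus WT of log2(FPKM + 1), which understate the change of low genes.

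Of the 40 members, 39 had a mean of at least 1 FPKM and were tested among 12118 genes, and Trib3 was below. By limma with Benjamini-Hochberg adjustment at 0.05, 0 of the 39 were higher (2 of all genes, 0.0165%) and 0 were lower (3 of all genes, 0.0248%), so that 0.0413% of all genes passed in either direction. At an unadjusted p under 0.05, 5 members were higher, or 12.8%, against 3.56% of all genes tested, and 0 were lower, against 2.48%. These 5 were Nupr1, Chac1, Asns, Ddit4 and Ddit3, all of them ATF4 targets. In 3 members (7.69%) the 4 KO values lay above the 4 WT values on the log2 scale, against 2.42% of all genes, and in 0 below, against 2.77%. Fold changes were positive in 28 of 39 members (71.8%), against 47.4% of all genes. Their median was 0.09, and over all genes it was -0.01. Members vary together within a mouse, so these counts do not come from 39 independent measurements. The members were also chosen with earlier results of these data known, so shares above those of all genes are no test of the list.

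The libraries held 17884140 to 20344859 reads. C1qtnf1, the deleted gene, was at 0.883, 0.322, 0.60 and 0.633 FPKM in KO replicates 1 to 4 and at 5.34, 5.27, 5.53 and 5.55 FPKM in WT replicates 1 to 4, so each library matched its label (log2 fold change -2.0, limma adjusted p = 2.4e-05). Kidney markers were high in all 8 libraries, the 5 proximal tubule markers summing to 3646 to 4560 FPKM in KO and 4003 to 4760 FPKM in WT. KO replicate 2 stood apart from the other libraries. Its values were low in long genes and high in short ones. The Spearman correlation of its deviation from the WT mean with gene length was -0.59 over 12118 genes. It was -0.16 to 0.21 in the other 7 libraries, each WT library being set against the mean of the other WT libraries. Mitochondrially encoded genes took 8.75% of the reads of KO replicate 2, against 3.02% to 4.85% in the others. The members are therefore also given without that mouse. Without it, 0 members passed, 10 of 39 were higher at an unadjusted p under 0.05 (25.6%, against 6.10% of all genes) and 0 were lower (5.50% of all genes). These 10 were not all ATF4 targets. They were the ATF4 targets Asns, Chac1, Ddit3, Ddit4, Nupr1 and Psat1, the chaperone genes Hyou1 and Sdf2l1, the ER degradation gene Syvn1, and Xbp1. Fold changes were then positive in 31 of 39 (79.5%), against 47.2% of all genes. In 5 members (12.8%) the remaining KO values lay above all WT values, against 5.30% of all genes, and in 0 below, against 6.22%.

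**Figure D1:**
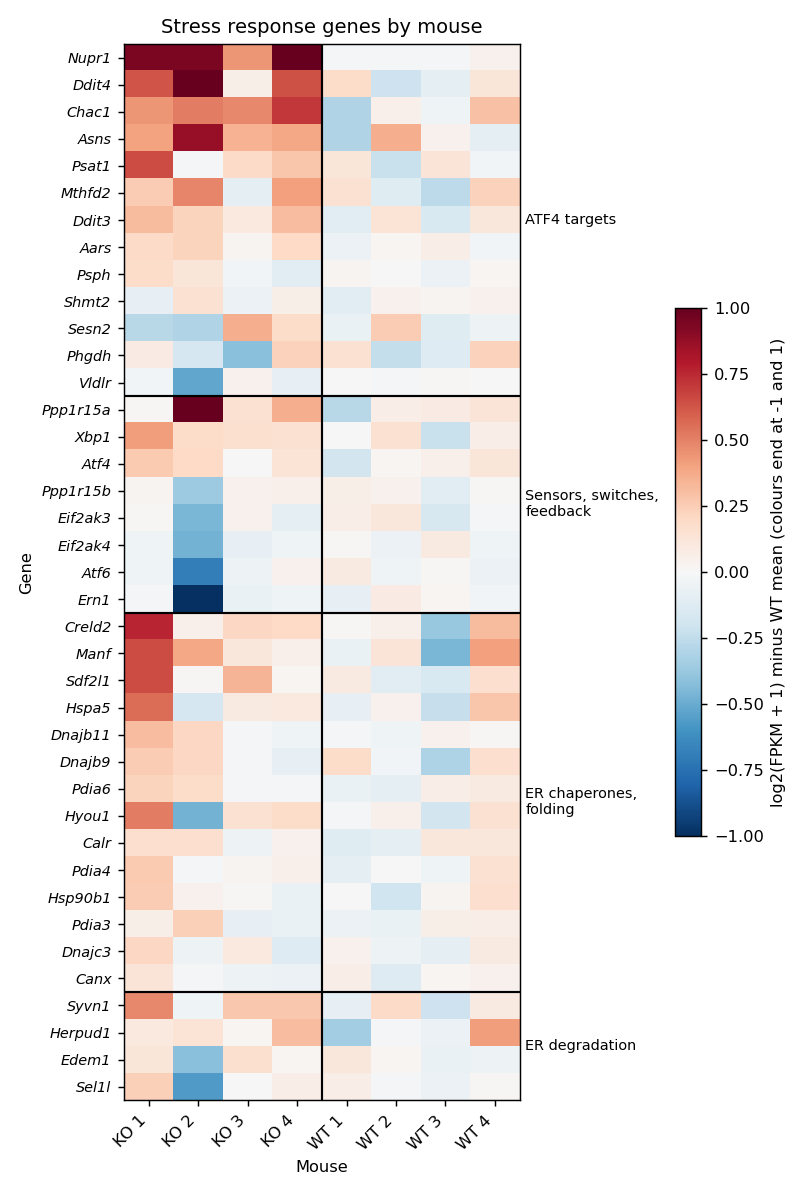
Deviation of each of the 39 tested members from its WT mean, on the log2(FPKM + 1) scale, in the 4 KO and the 4 WT mice, with genes in rows by role. Red is above and blue below the WT mean, and colours end at -1 and 1. Nupr1 is red in the 4 KO mice, KO replicate 1 is red through most chaperones, and KO replicate 2 is blue at Ern1, Atf6, Sel1l and Hyou1.

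Nupr1, a small stress-induced chromatin protein and ATF4 target, lies on chromosome 7 from 126623249 to 126630861 (mm10, minus strand). Its level was 6.23, 5.68, 4.05 and 7.53 FPKM in KO replicates 1 to 4 and 2.78, 2.73, 2.63 and 2.81 FPKM in WT replicates 1 to 4. The lowest KO mouse lay above the highest WT mouse, and the WT mice hardly differed from one another. Its log2 fold change came to 0.87 ± 0.14 (SE, 95% interval 0.56 to 1.19, limma adjusted p = 0.11), higher in 4 of 4 KO mice. The KO values rest on 183 to 368 reads and the WT values on 124 to 140. KO replicate 3 was the KO mouse nearest to WT, and without it Nupr1 passed the test (log2 fold change 1.01, limma adjusted p = 0.0054). Without KO replicate 2 the log2 fold change was 0.85 (limma adjusted p = 0.060).

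Chac1, which breaks down glutathione, lies on chromosome 2 from 119351229 to 119354381 (plus strand). It was at 1.37, 1.36, 1.43 and 1.87 FPKM in KO replicates 1 to 4 and at 0.422, 0.792, 0.667 and 1.11 FPKM in WT replicates 1 to 4. The groups did not overlap, but the gene was low, and the nearest libraries were within counting error of each other. KO replicate 1 had 40 reads (exact Poisson 95% interval 28.6 to 54.5) and WT replicate 4 had 37 (26.1 to 51.0). The log2 fold change came to 0.54 ± 0.13 (SE, limma adjusted p = 0.37), and 0.55 without KO replicate 2 (limma adjusted p = 0.19).

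Asns, asparagine synthetase, lies on chromosome 6 from 7675169 to 7693254 (minus strand). It was at 2.0, 2.89, 1.88 and 1.99 FPKM in KO replicates 1 to 4 and at 0.856, 1.90, 1.29 and 1.1 FPKM in WT replicates 1 to 4. The groups overlapped, since WT replicate 2 reached the level of KO replicate 3. Its log2 fold change came to 0.50 ± 0.16 (SE, limma adjusted p = 0.67). KO replicate 2 was the highest, and without it the log2 fold change was 0.39 (limma adjusted p = 0.34).

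Ddit4, an inhibitor of the growth regulator mTORC1 that is also induced by glucocorticoids and low oxygen, lies on chromosome 10 from 59949669 to 59951834. It was at 16.2, 41.5, 10.5 and 16.3 FPKM in KO replicates 1 to 4 and at 11.8, 8.59, 9.14 and 10.9 FPKM in WT replicates 1 to 4. A single mouse, KO replicate 2, was far above the rest, and KO replicate 3 lay inside the WT range. The log2 fold change came to 0.85 ± 0.34 (SE, limma adjusted p = 0.79), and 0.44 without KO replicate 2 (limma adjusted p = 0.32). Of 10 rapidly induced genes listed as a sign of sample handling, 6 are immediate early genes and 4 are heat shock genes, a split made after their values were seen. Atf3, placed with the immediate early genes, is also on the list of other integrated stress response genes given below. The immediate early genes summed to 28.2, 177, 49.2 and 53.6 FPKM in KO replicates 1 to 4 and to 32.6, 36.0, 37.7 and 37.6 FPKM in WT replicates 1 to 4. Among KO mice, 6 of 6 immediate early genes were highest in KO replicate 2, as Ddit4 was, and 4 of 4 heat shock genes were lowest there. The other KO mice did not follow the same order, Ddit4 being lowest in KO replicate 3 and the immediate early sum in KO replicate 1. Over the 10 genes together the sums ran from 154 to 236 FPKM in KO and from 89.6 to 113 FPKM in WT. All 8 of the tested genes among the 10 had positive fold changes, 0 passed the test, and none of the 10 was at 0 in all libraries. The part of these genes in the Ddit4 values was not tested.

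Ddit3, which encodes the death-related factor CHOP, was at 12.2, 10.3, 10.2 and 12.1 FPKM in KO replicates 1 to 4 and at 9.01, 10.6, 8.27 and 10.2 FPKM in WT replicates 1 to 4. The groups overlapped. Its log2 fold change came to 0.24 ± 0.10 (SE, limma adjusted p = 0.79). Exons of Ddit3 overlap those of Mars and Gm4189 on the opposite strand, and whether reads were counted by strand is not given, so its level is uncertain. Trib3, a pseudokinase that restrains ATF4, was at 0.717 ± 0.178 FPKM in KO and 0.713 ± 0.0927 FPKM in WT, with 18 to 37 reads a mouse.

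The other amino acid and one-carbon enzymes among the ATF4 targets had log2 fold changes from -0.07 to 0.28. Shmt2, the mitochondrial serine hydroxymethyltransferase and the highest ATF4 target, was at 147, 158, 147 and 163 FPKM in KO replicates 1 to 4 and at 147, 158, 154 and 156 FPKM in WT replicates 1 to 4. The groups covered nearly the same range, and the log2 fold change came to 0.02 ± 0.09 (SE, limma adjusted p = 0.97). Serine synthesis runs through Phgdh, Psat1 and Psph, whose log2 fold changes were -0.07, 0.28 and 0.04. Psat1 was at 18.2, 10.2, 12.8 and 13.8 FPKM in KO replicates 1 to 4 and at 12.6, 9.41, 12.0 and 10.7 FPKM in WT replicates 1 to 4, highest in KO replicate 1. Without KO replicate 2 the log2 fold change of Psat1 was 0.38 (limma adjusted p = 0.31). Mthfd2, a mitochondrial folate enzyme, had a log2 fold change of 0.26, and Aars, which charges the alanine tRNA, of 0.16. Sesn2, which relays leucine levels, had -0.01, and the lipoprotein receptor gene Vldlr -0.15. In Psph, Shmt2 and Aars, exon bases are shared with another annotated gene.

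**Figure D2:**
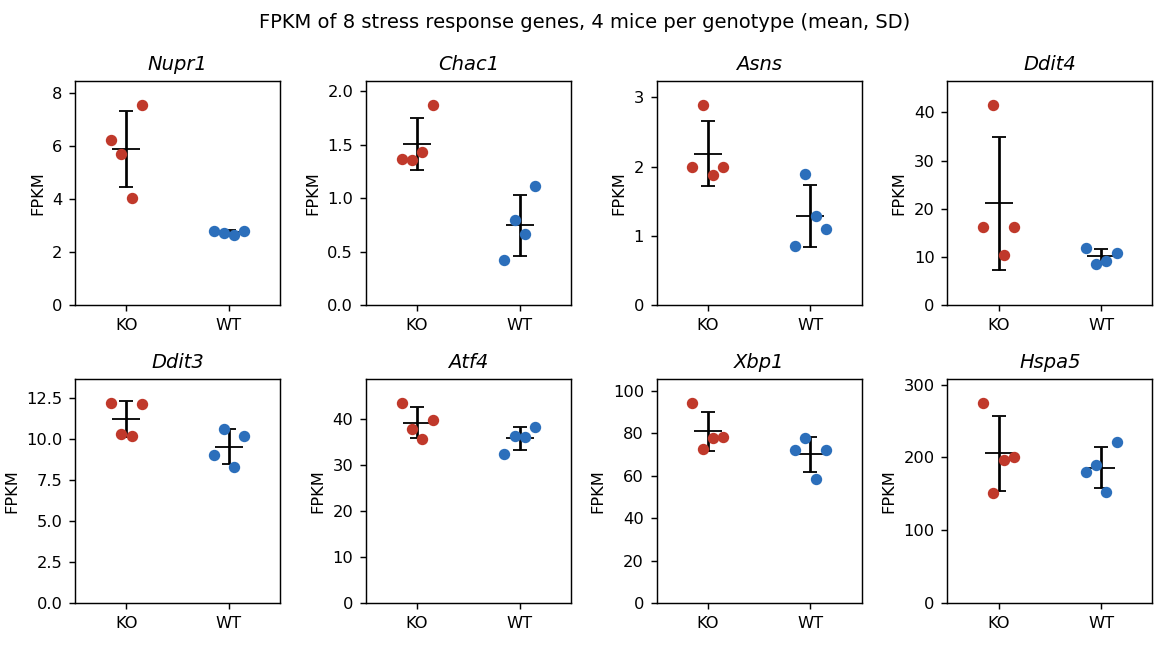
FPKM of 8 members in the 4 KO mice (red, left) and the 4 WT mice (blue, right) of each panel, with points for mice, long bars for the mean and whiskers for 1 SD, each axis starting at 0. Nupr1 and Chac1 do not overlap between KO and WT, Ddit4 has a single high KO mouse at 41.5 FPKM, and Atf4, Xbp1 and Hspa5 overlap.

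ATF4 binds a C/EBP-ATF response element, searched here as TGATGNAA on both strands in RefSeq promoter windows (GRCm38.p6, the mm10 assembly) that run from 250 bases before to 50 bases after the gene start. Windows were found for 36 of the 40 members. The element was in 6 of 14 ATF4 targets, among them Nupr1, Chac1, Asns, Trib3 and Vldlr, in 0 of 6 sensors and feedback genes, in 0 of 12 chaperones and in 1 of 4 ER degradation genes (Herpud1). It was in 3.97% of 32851 windows of all genes. Windows follow RefSeq starts, which can differ from the GENCODE spans given above. For Nupr1 the RefSeq start is 126625470, 5391 bases inside the GENCODE span. The lines below show the element in the 3 genes with the lowest p and in Vldlr, which holds it too but had a log2 fold change of -0.15. Capitals mark the element, and the flanking bases are in lower case.
Nupr1, chr7:126625562-126625591, plus strand: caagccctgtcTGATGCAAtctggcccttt
Chac1, chr2:119351038-119351067, minus strand: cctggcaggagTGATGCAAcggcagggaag
Asns, chr6:7693214-7693243, minus strand: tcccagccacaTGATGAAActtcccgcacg
Vldlr, chr19:27216809-27216838, minus strand: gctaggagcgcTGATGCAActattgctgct
Nupr1, Chac1 and Vldlr share the same 8 letters in the element, and Asns has a different letter at its variable base. A match describes these letters in this window and does not show that a protein binds there. Ddit4 and Ddit3 have no match in their windows.

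Among the sensors, switches and feedback genes, none passed the test, and the median log2 fold change was -0.10, with 3 of 8 positive. Atf4, whose protein is set mostly by translation and not by its transcript, was at 43.5, 37.9, 35.6 and 39.7 FPKM in KO replicates 1 to 4 and at 32.3, 36.3, 36.1 and 38.3 FPKM in WT replicates 1 to 4. The groups overlapped, and the log2 fold change came to 0.15 ± 0.09 (SE, limma adjusted p = 0.85). Xbp1, the target of IRE1, was at 94.5, 72.9, 78.0 and 78.4 FPKM in KO replicates 1 to 4 and at 72.0, 77.8, 58.6 and 72.3 FPKM in WT replicates 1 to 4. As deposited, KO replicate 2 lay below WT replicate 2, and the groups separated only after scaling for library composition. Its log2 fold change came to 0.23 ± 0.10 (SE, limma adjusted p = 0.82). Values per gene count both splice forms of Xbp1 together, so splicing by IRE1 cannot be read from them.

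Ppp1r15a, which brings the phosphatase back to eIF2alpha and so ends the response, was at 6.03, 11.8, 6.64 and 7.94 FPKM in KO replicates 1 to 4 and at 4.85, 6.29, 6.17 and 6.46 FPKM in WT replicates 1 to 4. It was highest in KO replicate 2, as Ddit4 was. The log2 fold change came to 0.38 ± 0.20 (SE, limma adjusted p = 0.84), and 0.18 without that mouse. Exons of Ppp1r15a overlap those of Tulp2 on the opposite strand. Its constitutive counterpart Ppp1r15b had a log2 fold change of -0.06.

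The sensor kinases and Atf6 were lower in KO replicate 2 than in any other mouse. Eif2ak4 was at 2.73, 1.61, 2.6 and 2.73 FPKM in KO replicates 1 to 4 and at 2.92, 2.68, 3.01 and 2.67 FPKM in WT replicates 1 to 4. Ern1 was at 7.25, 2.84, 6.88 and 7.13 FPKM in KO replicates 1 to 4 and at 7.06, 7.78, 7.21 and 7.03 FPKM in WT replicates 1 to 4. Outside KO replicate 2, the KO mice lay inside or next to the WT range in both genes. Atf6 was at 9.0 ± 2.36 FPKM in KO and 10.2 ± 0.735 FPKM in WT, and Eif2ak3 at 9.21 ± 1.81 FPKM in KO and 10.2 ± 1.09 FPKM in WT. The log2 fold changes were -0.16 for Eif2ak4, -0.28 for Ern1, -0.18 for Atf6 and -0.13 for Eif2ak3, none of which passed. Without KO replicate 2 they were -0.05 for Eif2ak4 and -0.04 for Ern1.

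The low values in KO replicate 2 went with gene length. The 9 tested members of at least 5000 bases were Vldlr, Aars, Eif2ak4, Ppp1r15b, Atf6, Ern1, Sel1l, Dnajc3 and Edem1. In KO replicate 2, 8 of these 9 lay below the WT mean, with a median deviation of -0.47, and the other 30 members had a median of 0.16. In KO replicates 1, 3 and 4, the median deviation of the long members was 0.03, 0.03 and 0.02, and that of the other 30 was 0.26, 0.05 and 0.14. Over the 39 members, the Spearman correlation of the deviation with gene length was -0.54, -0.67, -0.17 and -0.45 in KO replicates 1 to 4. In WT replicates 1 to 4 it was 0.17, 0.05, 0.24 and -0.64, each WT mouse being set against the mean of the other WT mice. A negative correlation among the members was thus not limited to KO replicate 2. Taken over all tested genes, the correlation was -0.59 in KO replicate 2. It was 0.11 in KO replicate 1, -0.02 in KO replicate 4 and -0.16 in WT replicate 4. Over all genes tested, those of at least 5000 bases had a median deviation of -0.37 in KO replicate 2 and those under 1500 bases 0.41. The part of gene length in the fold changes of the long members was not tested. Without KO replicate 2, the median log2 fold change of the 8 sensors and feedback genes was 0.01, with 4 of 8 positive.

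**Figure D3:**
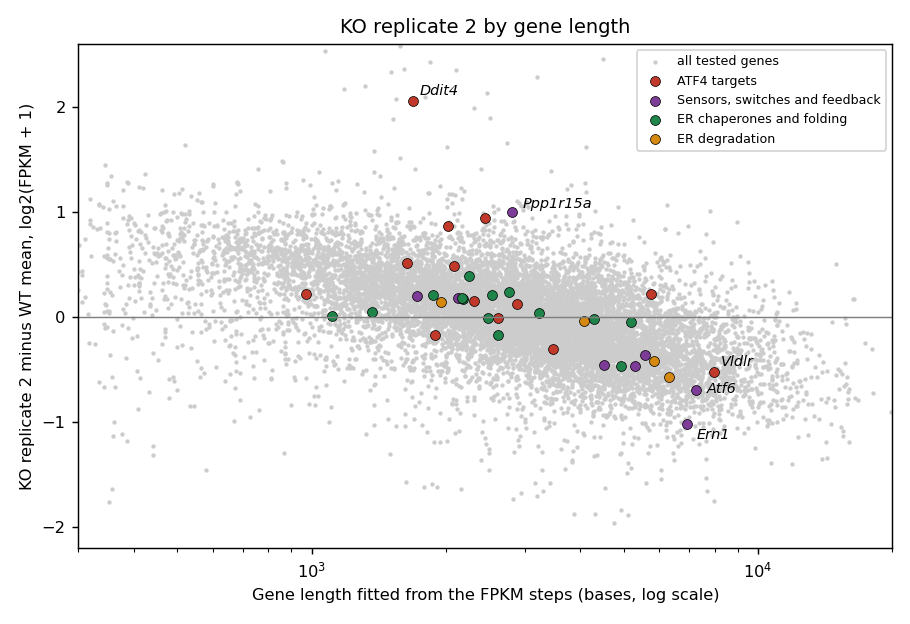
Deviation of KO replicate 2 from the WT mean, on the log2(FPKM + 1) scale, against gene length in bases (log axis) for all tested genes (grey) and for the members, coloured by role. The cloud slopes down to the right, and the longest members, Ern1, Atf6 and Vldlr among them, lie below 0, while Ddit4 lies above the cloud and Ppp1r15a near its upper edge. A few genes fall outside the axes.

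Of the 14 ER chaperones and folding factors, 13 had a positive fold change and none passed the test. The fold changes were small, from 0.00 for Canx to 0.30 for Manf and Creld2, with a median of 0.09. Calr, calreticulin, was the highest member of all, at 406, 372, 345 and 371 FPKM in KO replicates 1 to 4 and at 340, 334, 377 and 381 FPKM in WT replicates 1 to 4. The log2 fold change of Calr was 0.08 ± 0.10 (SE, limma adjusted p = 0.88). Hspa5 was at 275, 151, 196 and 200 FPKM in KO replicates 1 to 4 and at 180, 190, 153 and 221 FPKM in WT replicates 1 to 4. KO mice held both the highest and the lowest value of Hspa5. Its log2 fold change came to 0.15 ± 0.16 (SE, 95% interval -0.22 to 0.51, limma adjusted p = 0.87), 0.01 without KO replicate 1 and 0.25 without KO replicate 2. The interval leaves room for a change in either direction.

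The other chaperones with the lowest p followed the same mice. Creld2, a folding factor secreted under ER stress, was at 47.6, 26.0, 31.7 and 31.7 FPKM in KO replicates 1 to 4 and at 28.3, 28.4, 20.2 and 33.9 FPKM in WT replicates 1 to 4. Sdf2l1, which keeps BiP cycling, was at 26.3, 15.1, 20.8 and 16.7 FPKM in KO replicates 1 to 4 and at 18.0, 15.1, 14.2 and 18.1 FPKM in WT replicates 1 to 4. Manf, an ER-resident protein that is released under stress, was at 54.4, 41.1, 36.5 and 35.5 FPKM in KO replicates 1 to 4 and at 33.1, 37.1, 23.7 and 44.7 FPKM in WT replicates 1 to 4. In all of these KO replicate 1 was the highest of the 8 mice and WT replicate 3 the lowest, while the other KO mice overlapped with the other WT mice. Dnajb11, a cofactor of BiP, was at 52.2, 44.2, 40.9 and 40.8 FPKM in KO replicates 1 to 4 and at 42.5, 40.4, 41.6 and 41.3 FPKM in WT replicates 1 to 4. The log2 fold changes were 0.30 ± 0.18 for Creld2, 0.25 ± 0.15 for Sdf2l1, 0.30 ± 0.19 for Manf and 0.12 ± 0.09 for Dnajb11 (SE, limma adjusted p = 0.85 for Creld2, Sdf2l1 and Manf and 0.86 for Dnajb11). Without KO replicate 1 they were 0.15, 0.12, 0.18 and 0.05, and without WT replicate 3 those of Creld2 and Manf were 0.18 and 0.15. Leaving out KO replicate 2 gave 0.39 for Creld2, 0.34 for Sdf2l1, 0.28 for Manf and 0.09 for Dnajb11. Exons of Manf overlap those of neighbouring genes.

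The chaperones varied together between mice of the same genotype. Among KO mice, 12 of 14 were highest in KO replicate 1, where 20.0% of all tested genes were highest. Among WT mice, 11 of 14 were highest in WT replicate 4 (21% of all genes) and 7 of 14 lowest in WT replicate 3 (23.0% of all genes). The mean deviation of the 14 from the WT mean was 0.36, 0.06, 0.06 and 0.01 in KO replicates 1 to 4 and -0.01, -0.04, -0.11 and 0.16 in WT replicates 1 to 4. KO replicate 1 stood above the other 7 mice, and the rest of the KO mice lay inside the WT range. Plasma cells, which are rich in chaperones, had marker sums of 238, 464, 139 and 152 FPKM in KO replicates 1 to 4 and 188, 325, 310 and 460 FPKM in WT replicates 1 to 4. Most of that sum of 6 markers was the antibody transcripts Igkc and Igha, and its part in the chaperone values was not tested. The 4 heat shock genes of the handling list (Hspa1a, Hspa1b, Dnajb1 and Hsph1), chaperones of the cytosol, summed to 168, 59.1, 105 and 103 FPKM in KO replicates 1 to 4 and to 57.0, 74.5, 52.7 and 75.8 FPKM in WT replicates 1 to 4. Among KO mice 4 of 4 were highest in KO replicate 1, and among WT mice 3 of 4 were lowest in WT replicate 3, the same mice as for the chaperones. Their part in the chaperone values was not tested either.

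The ER stress response element, bound by ATF6 and XBP1, was searched in the same windows and on both strands as CCAAT and CCACG with 9 bases of any kind between them. It was in 7 of 12 chaperones (Hspa5, Hsp90b1, Calr, Canx, Pdia6, Dnajc3 and Creld2), in Syvn1 among the 4 ER degradation genes, in 0 of 14 ATF4 targets, and in 0.119% of all windows. A shorter form, ATTGG and CCACG with 1 base of any kind between them, was in Dnajb11 and Herpud1 and in 0.0365% of all windows. Herpud1 held both this form and the ATF4 element, which did not overlap. The elements of Hspa5, of Creld2, one of the chaperones with the largest fold change, of Syvn1 and both elements of Herpud1 are shown with the motif in capitals.
Hspa5, chr2:34772020-34772048, plus strand: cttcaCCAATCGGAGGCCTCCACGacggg
Creld2, chr15:88819515-88819543, minus strand: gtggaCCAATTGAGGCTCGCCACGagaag
Syvn1, chr19:6046527-6046555, plus strand: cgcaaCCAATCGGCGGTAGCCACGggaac
Herpud1, shorter ER element, chr8:94386368-94386396, plus strand: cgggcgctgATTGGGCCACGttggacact
Herpud1, ATF4 element, chr8:94386306-94386335, minus strand: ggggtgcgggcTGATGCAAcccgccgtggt
The ATF4 element of Herpud1 has the same 8 letters as that of Nupr1 and Chac1, yet the log2 fold change of Herpud1 was 0.14.

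The 4 ER degradation genes remove misfolded protein from the ER, and none passed the test. Herpud1, a scaffold of the degradation complex, was at 248, 233, 233 and 287 FPKM in KO replicates 1 to 4 and at 186, 228, 215 and 302 FPKM in WT replicates 1 to 4. Syvn1, the ubiquitin ligase HRD1, was at 23.7, 14.7, 20.0 and 20.4 FPKM in KO replicates 1 to 4 and at 16.1, 19.0, 13.9 and 17.5 FPKM in WT replicates 1 to 4. The groups overlapped in both genes, in Syvn1 through KO replicate 2 alone. The log2 fold changes were 0.14 ± 0.15 for Herpud1 (SE, limma adjusted p = 0.87) and 0.24 ± 0.13 for Syvn1 (limma adjusted p = 0.84). That of Herpud1 was 0.03 without WT replicate 1, 0.09 without KO replicate 4 and 0.28 without WT replicate 4. Without KO replicate 2, that of Syvn1 was 0.34 (limma adjusted p = 0.26). Exons of Syvn1 overlap those of Mrpl49 on the opposite strand.

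Sel1l, the partner of Syvn1, was at 28, 14.2, 23.3 and 24.8 FPKM in KO replicates 1 to 4 and at 25.3, 23.1, 21.8 and 23.3 FPKM in WT replicates 1 to 4. Edem1, which marks misfolded glycoproteins, was at 25.4, 15.6, 25.7 and 23.6 FPKM in KO replicates 1 to 4 and at 25.6, 23.4, 21.4 and 21.9 FPKM in WT replicates 1 to 4. Both are long genes and lowest in KO replicate 2. Their log2 fold changes were -0.06 and -0.03, and 0.11 and 0.10 without that mouse. Over the 4 ER degradation genes the median was 0.06, and 0.13 without KO replicate 2, with 2 of 4 and 4 of 4 positive.

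The design sets the ATF4 arm against the ER arm. The median log2 fold change was 0.24 in the 13 tested ATF4 targets, with 10 of 13 positive, and 0.09 in the 18 chaperone and ER degradation genes, with 15 of 18 positive. Without KO replicate 1 the medians were 0.15 and 0.04, with 10 of 13 and 12 of 18 positive. The medians without KO replicate 2 were 0.19 and 0.10, with 10 of 13 and 17 of 18 positive. Leaving out members under a mean of 5 FPKM turned the order of the medians, to 0.04 in the 9 ATF4 targets that remained (6 positive) and 0.09 in the 18 ER genes (15 positive). The mean deviation of the ATF4 targets was 0.28, 0.35, 0.11 and 0.34 in KO replicates 1 to 4 and -0.03, 0.00, -0.04 and 0.07 in WT replicates 1 to 4. All 4 KO mice lay above the WT mice for the ATF4 targets, with KO replicate 3 closest.

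Taken within each mouse, the mean of the ATF4 targets minus that of the ER genes was -0.05, 0.36, 0.04 and 0.29 in KO replicates 1 to 4 and 0.00, 0.02, 0.06 and -0.08 in WT replicates 1 to 4. It averaged 0.16 ± 0.19 in KO and 0.00 ± 0.06 in WT (SD, n = 4 each). KO replicates 1 and 3 lay inside the WT range, and KO replicates 2 and 4 above it. In KO replicate 1 the ER genes had a mean deviation of 0.33 and the ATF4 targets of 0.28. The difference of 0.16 between KO and WT was close to the spread between mice (pooled SD 0.14). It came down to 0.04 with the minimum of 5 FPKM, which drops Nupr1, Chac1, Asns and Mthfd2, and was 0.10 without KO replicate 2. It went up to 0.23 without KO replicate 1, and to 0.25 when 0.1 was added to FPKM in place of 1. The arms also differ in level, the median member having 8.79 FPKM among ATF4 targets and 45.7 FPKM among chaperones.

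**Figure D4:**
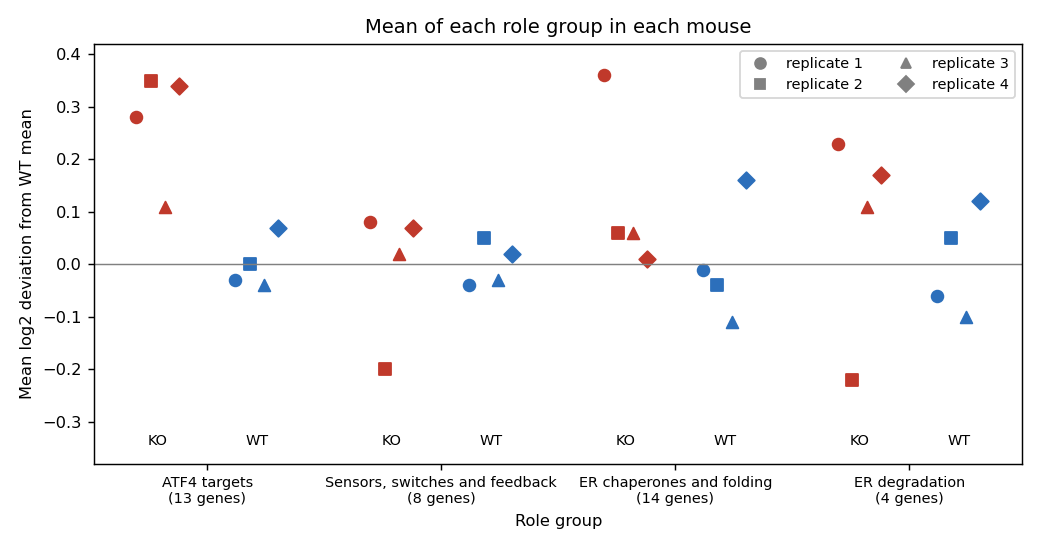
Mean deviation from the WT mean over the tested members of each role group, on the log2(FPKM + 1) scale, 1 point per mouse (KO red on the left, WT blue on the right of each group, shapes for replicate numbers). The ATF4 targets lie between 0.11 and 0.35 in KO mice and between -0.04 and 0.07 in WT mice, while the chaperones stand out in KO replicate 1 and the sensors and ER degradation genes are lowest in KO replicate 2.

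The members closest to Nupr1 in their pattern over the 8 libraries were Aars (Pearson r 0.90), Chac1 (0.85) and Ddit3 (0.82). Among all 12117 other tested genes, the closest were Cryab, a small heat shock protein (0.99), Plet1 (0.99) and Krt18, a keratin of simple epithelia (0.98). Cryab was at 97.5, 91.6, 61.9 and 119 FPKM in KO replicates 1 to 4 and at 45.9, 44.8, 49.8 and 44.0 FPKM in WT replicates 1 to 4. Like Nupr1, Cryab was lowest in replicate 3 among KO mice and highest in replicate 4. These correlations are descriptions over 8 libraries that share their split into KO and WT.

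Markers of urothelium, which lines the renal pelvis, were also higher in KO mice. Their 7 genes summed to 34.1, 15.2, 14.8 and 27.9 FPKM in KO replicates 1 to 4 and to 7.35, 10.2, 4.06 and 3.98 FPKM in WT replicates 1 to 4. All 6 tested markers had positive fold changes, 0 passed the test, and none of the 7 was at 0 in all libraries. Their sum, like Nupr1, was higher in every KO than in every WT mouse. Among KO mice the sum was lowest in replicate 3, close to replicate 2, and highest in replicate 1. Nupr1 was also lowest in replicate 3, but highest in replicate 4. Among WT mice the sum ran from 3.98 to 10.2 FPKM and Nupr1 only from 2.63 to 2.81 FPKM. Markers of collecting duct principal cells (4 genes) summed to 403 to 559 FPKM in KO and 323 to 450 FPKM in WT, 3 of the 4 with positive fold changes and none at 0 in all libraries. Most of the difference in the principal cell sum lay in Aqp2, with means of 313 FPKM in KO and 203 FPKM in WT. The KO and WT means were 96.4 and 87.3 FPKM for Hsd11b2, 16.2 and 12.3 FPKM for Fxyd4, and 71.3 and 74.7 FPKM for Aqp3. The part of urothelial or principal cells in the Nupr1 values was not tested.

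Further genes of the same pathways, listed by their role, had medians close to 0. Of 35 other integrated stress response genes, 28 were tested, 0 passed in either direction, 16 were positive and the median log2 fold change was 0.02. At an unadjusted p under 0.05, 2 were higher (3.56% of all genes) and 1 was lower (2.48% of all genes). Cebpb had the largest fold change (1.04, limma adjusted p = 0.71). It was at 14.6, 55.7, 16.6 and 22.7 FPKM in KO replicates 1 to 4 and at 11.4, 9.51, 10.9 and 13.0 FPKM in WT replicates 1 to 4. The lowest p belonged to Bbc3, a cell death gene, at 5.97 ± 1.18 FPKM in KO and 3.98 ± 0.649 FPKM in WT (log2 fold change 0.50, limma adjusted p = 0.58), and to Gpt2, an alanine transaminase, at 25.4 ± 1.56 FPKM in KO and 30.8 ± 1.97 FPKM in WT (-0.24, limma adjusted p = 0.63). Of 39 other unfolded protein response, folding and ER degradation genes, 38 were tested, 0 passed in either direction, 20 were positive and the median was 0.02. The lowest p belonged to Wfs1, an ER membrane protein, at 9.80 ± 2.58 FPKM in KO and 7.68 ± 0.105 FPKM in WT (log2 fold change 0.30), and to the ER-bound factor Creb3, at 23.5 ± 1.26 FPKM in KO and 20.7 ± 1.34 FPKM in WT (0.20), each with a limma adjusted p of 0.82.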

How the data were processed

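Poly-A selected RNA of 8 whole left kidneys was sequenced, 1 library a mouse, and mice were grouped by the genotype in the labels. The labels describe the 8 mice as biological replicates. The submitters' processing notes name DESeq2, HTSeq 0.6.1, STAR 2.5 and CASAVA with build mm10. For the annotation, the strand setting and the use of each tool, nothing is given in the sources used here. The authors deposited 1 table of values per gene with no unit in its header, treated here as FPKM, because its values were whole multiples of a step set by gene length and depth. Reads recovered from these steps (all 22945 genes above 0, within 0.002 reads, at fitted gene lengths) made up 99.81% to 99.87% of the fitted library totals, and gave scaling factors, gene lengths and counting error. Counting intervals cover counting error only.

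The test was limma 3.58.1 in R 4.3.3 (trend and robust, statmod 1.5.0) on log2(FPKM divided by a trimmed-mean scaling factor, plus 1), for the 12118 genes averaging at least 1 FPKM, with Benjamini-Hochberg adjustment at 0.05. It stood in for a count test, since the deposited values are not counts. The fitting script was tested on simulated data. Positions came from GENCODE M21 (mm10), and 14 of the 40 members share exon bases with another annotated gene. Members and lists were chosen with earlier results of these data known. Values per mouse are given, in each role group, for members past the threshold or, with none, for the 4 of lowest p, and for the highest member, Atf4, Ddit3, Xbp1 and Hspa5. Psat1 and Ern1 were added after their values were seen. Of the other pathway genes, the 2 of lowest p in each list are named, and Cebpb was added after its values were seen. Atf3 is named because the handling list holds it too. The genes most like Nupr1 were ranked by Pearson r of log2(FPKM + 1). The promoter sequence of 1 member that is counted among the matches is not reported here. Alternatives were other scalings, filters and a pseudocount of 0.1, voom on recovered reads, weights by library quality, and leaving out each mouse.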

Additional observations from a re-analysis of the deposited data

Results flagged for a closer look

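Of 88 groups of 4 mice examined, 40 members and 4 role-group means in each genotype, 8 held a mouse far from the other 3 of its genotype, where chance flags about 1 in 20 groups, and 5 of the 8 were KO replicate 2. KO replicate 2 was far below the other KO mice in Eif2ak4 at 1.61 FPKM (others 2.6 to 2.73), Ppp1r15b at 17.5 FPKM (25.2 to 25.7), Atf6 at 5.50 FPKM (9.82 to 10.6) and Ern1 at 2.84 FPKM (6.88 to 7.25), and far above them in Asns at 2.89 FPKM (1.88 to 2.0). KO replicate 4 was far above the others in Chac1 at 1.87 FPKM (1.36 to 1.43). These 2 high flags rest on few reads. Chac1 had 61 reads in KO replicate 4 (exact Poisson 95% interval 46.7 to 78.4) and 43 in KO replicate 3 (31.1 to 57.9). Asns had 107 reads in KO replicate 2 (87.7 to 129) and 80 in KO replicate 4 (63.4 to 99.6). The intervals overlap in both genes. WT replicate 1 was flagged in Vldlr at 15.2 FPKM (14.4 to 14.5). That difference is small, and the flag weighs the gap against the range of the 4 values. The mean deviation of the ER chaperones was 0.36 in KO replicate 1, against 0.01 to 0.06 in the other KO mice.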

How the results depend on the processing

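Over all genes, limma called 2 higher and 3 lower. With a minimum mean of 5 FPKM it called 1 higher. With voom and quality weights it called 38 higher and 36 lower, and with array weights 30 higher and 28 lower, both giving KO replicate 2 a weight of about 0.10. Leaving out each mouse gave 2 to 16 higher genes (16 without KO replicate 3, 9 without KO replicate 2, 4 without WT replicate 2) and 1 to 11 lower genes (11 without KO replicate 2, 1 without WT replicate 1 or WT replicate 3). Of the members, 1 (Nupr1) was higher with quality weights, with array weights and without KO replicate 3, and 0 to 1 whichever mouse was left out. The difference between the means of the ATF4 and ER arms was from 0.04 (minimum of 5 FPKM) to 0.26 (voom), and from 0.10 to 0.23 whichever mouse was left out. The medians turned round with the minimum of 5 FPKM (0.04 in ATF4 targets, 0.09 in ER genes). Among named members that did not pass, Shmt2 turned to -0.01 without scaling, -0.06 with either set of weights and -0.02 without KO replicate 2 or WT replicate 1, and lay from -0.02 to 0.05 whichever mouse was left out. Sel1l turned to 0.08 with quality weights, 0.07 with array weights and 0.11 without KO replicate 2, and Edem1 to 0.12 with quality weights, 0.12 with array weights, 0.10 without KO replicate 2 and 0.00 without WT replicate 1. Leaving out each mouse gave -0.16 to 0.11 for Sel1l and -0.10 to 0.10 for Edem1. The cause was not tested. No paired analysis was possible because the labels give no replicate number or litter that ties a KO mouse to a WT mouse. Depth limits the low members most, with 14 to 61 reads of Chac1 a mouse.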
